A study of Mus musculus with 6 samples.

Results

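The 9 genes described here encode the inducible machinery that cuts cytosolic proteins into peptides and loads them onto MHC class I molecules: the immunoproteasome subunits Psmb8, Psmb9 and Psmb10, the PA28 activator subunits Psme1 and Psme2, the peptide transporter subunits Tap1 and Tap2, the loading factor Tapbp and the peptide-trimming protease Erap1. They were taken by gene symbol from the deposited count table of 54532 genes. All 9 passed the filter on low counts, which 13480 genes passed. Psmb5, Psmb6 and Psmb7, the constitutive subunits that Psmb8, Psmb9 and Psmb10 respectively replace, were followed beside them.

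RNA was sequenced from marrow cells selected for CD8. The donors were female CByB6F1 hybrid mice, 2 to 5 months old, and all had bone marrow failure (BMF), in which T cells attack blood-forming cells. In 3 libraries the mice had received ruxolitinib, which blocks the kinases JAK1 and JAK2, and in the other 3 they had not. A library pooled 2 to 3 mice of its group (ruxolitinib pools 1 to 3 and control pools 4 to 6), so the spread within a group lies between pools and not between single mice. The sources used here do not give the dose, route or length of treatment, nor how the marrow failure was induced. Below, levels are listed in the order of pools 1, 2 and 3 for ruxolitinib and 4, 5 and 6 for controls.

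The proteasome is a barrel-shaped protease whose cutting sites lie in 3 beta subunits. Interferon gamma, signalling through JAK1 and JAK2, induces alternative versions of these 3 subunits together with PA28, which opens the barrel, and with the transporter that carries the cut peptides into the endoplasmic reticulum. There tapasin, the product of Tapbp, holds empty class I molecules next to the transporter and Erap1 trims peptides to their final length. Lymphocytes carry much of their proteasome in the immune form even at rest.

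The libraries held 13829808 to 17708196 counted reads. The RNA levels of cell type marker genes differed between the groups. The geometric mean of 17 CD8 T cell identity genes was 92.9, 111 and 255 CPM with ruxolitinib and 555, 540.2 and 414 CPM in controls (CPM, the read count scaled to library size, here with edgeR's TMM factors), and 16 of the 17 passed as lower. Most markers of other marrow cells were higher. Among all genes tested, 25.3% passed as lower and 29.9% as higher. All 13 erythroid genes measured passed as higher (summed level 126400 to 247200 CPM against 1929 to 2763 CPM, with Hba-a1 and Hbb-bs the most abundant), as did all 10 monocyte and macrophage genes (6982 to 11710 against 778 to 1172 CPM, Hmox1 and Lyz2 being the most abundant with ruxolitinib) and all 8 B cell genes (1005 to 1575 against 203 to 261 CPM, led by Ighm and Igkc, with Ms4a1 and Pax5 among those at 0 counts in all control pools). Of 9 granulocyte genes 7 passed as higher (8837 to 20680 against 1565 to 6078 CPM, with Ngp and S100a9 the most abundant with ruxolitinib). Of 10 dendritic cell genes 5 passed as higher, 3 did not pass and 2 passed as lower, Bst2 (log2 fold change -2.38) and Xcr1 (-1.23). The summed level of the 10 was 2766 to 3113 against 1523 to 1687 CPM, with Cd74 the most abundant, and Flt3 and Siglech at 0 in controls. Of 8 stromal and endothelial genes 7 passed as higher (127 to 173 against 33.1 to 40.1 CPM, with Cxcl12 the most abundant with ruxolitinib). The part of these other cells in the results below was not tested. In such bulk samples fewer cells of a type and less RNA per cell cannot be told apart.

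Psmb9, Tap1, Psmb8 and Tap2 are neighbours in the MHC region of chromosome 17, where their deposited gene models run from 34181988 (the lower end of Psmb9, ENSMUSG00000096727, minus strand) to 34216321 (the upper end of Tap2, ENSMUSG00000024339, plus strand; build mm10 here and below). Between them lie Tap1 (ENSMUSG00000037321) at 34187553 to 34197225 and Psmb8 (ENSMUSG00000024338) at 34197721 to 34201454, both on the plus strand, and Tapbp (ENSMUSG00000024308) lies apart on the same chromosome at 33915899 to 33929288. Psme1 (ENSMUSG00000022216, 55578123 to 55581529) and Psme2 (ENSMUSG00000079197, 55587441 to 55591113) lie close together on chromosome 14. Psmb10 (ENSMUSG00000031897) is on chromosome 8 at 105935735 to 105938444 and Erap1 (ENSMUSG00000021583) on chromosome 13 at 74639568 to 74693201.

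The RefSeq promoter windows (GRCm38.p6, 250 bases before to 50 after each gene start) were searched on both strands. The search was for the letters of elements through which interferon signals act. Windows were found for 8 of the 9 genes (not for Tap2) and for Psmb5 and Psmb6 (not for Psmb7). The core of the interferon-stimulated response element (ISRE), searched as 2 copies of GAAA with 2 bases between them, was present in 3.44% of all 32851 windows. Among the 8 genes it was found in Psme1, from base 10 after the start, and in Erap1, across the start. The gamma-activated site, TTCNNNGAA, was present in 8.3% of all windows and among the 8 genes was found in Psmb8, 97 bases before the start. The RefSeq starts of Psmb9 and Tap1 point away from each other with 225 bases between them (chr17:34187331-34187555), so this interval lies upstream of both genes. It held neither of these elements but did hold a GC box, GGGCGG, a letter string present in 35.7% of all windows. The GC box was also found in the windows of Psme1, Psme2, Tapbp and Erap1, and in that of the constitutive Psmb6. None of the 3 strings was found in the windows of Psmb10 or Psmb5. A match is a description of the letters only, and an absent match says nothing about a factor. For the ISRE and gamma-activated site matches and the GC box of the interval, 30 bases are shown on the plus strand. Matching letters are in capitals, and the ISRE core and the GC box appear as their reverse complements. The other GC boxes are not shown. The stretches are from chr14:55578493-55578522, chr13:74639839-74639868, chr17:34198088-34198117 and chr17:34187368-34187397 in turn.
Psme1: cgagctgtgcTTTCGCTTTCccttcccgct
Erap1: ccaccttcacTTTCACTTTCggtcccgggc
Psmb8: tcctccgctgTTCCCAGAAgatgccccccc
Tap1 and Psmb9 interval: cagactgaggccCCGCCCcatcatcgcgca

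All 9 genes fell in the ruxolitinib libraries, with a median log2 fold change of -2.34 (edgeR's quasi-likelihood test, Benjamini-Hochberg adjusted p under 0.05 over all genes tested), although Tap1, Tapbp and Erap1 turned to positive values with scaling to the CD8 identity genes. Of all genes tested, 25.3% fell and 29.9% rose in this comparison, and the median of all was 0.03. All 9 were also lower with DESeq2, which called 26% of genes lower and 31.1% higher, and with limma-voom, which called 25.4% lower and 31% higher. The catalytic subunits, the PA28 subunits and Tap2 fell by 2.29 to 3.07 on the log2 scale, and Tap1, Tapbp and Erap1 by 0.86 to 1.45. Ruxolitinib and control pools did not overlap for 8 of the 9 genes (30.3% of all genes tested were lower without overlap), Tap1 being the exception. Summed over the 9 genes, the level was 893, 1120 and 1579 CPM with ruxolitinib and 5258, 5619 and 6251 CPM in controls.

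**Figure D1:**
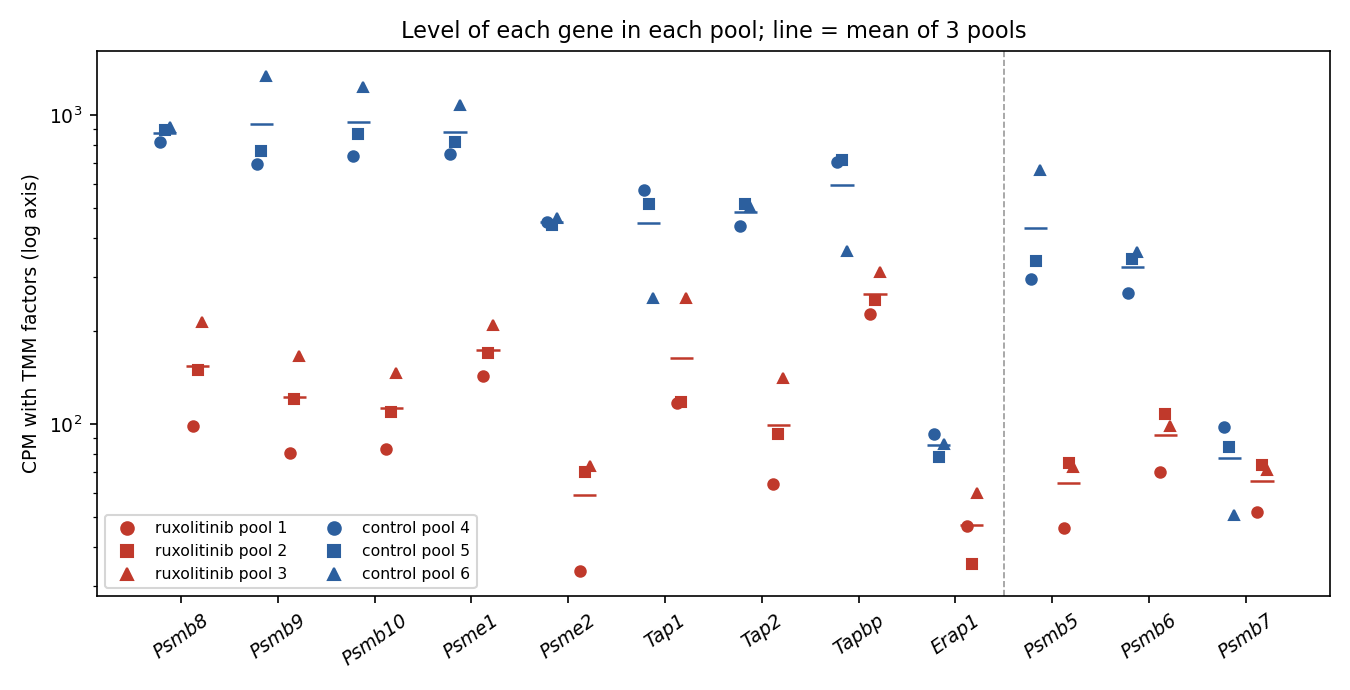
Level of each of the 9 genes and of the 3 constitutive counterparts (right of the dashed line) in every pool, in CPM with TMM factors on a log axis. Points are pools, coloured by group, and lines are group means. The ruxolitinib pools lie below the control pools for all genes shown except Tap1, where ruxolitinib pool 3 (256.3 CPM) and control pool 6 (256.0 CPM) meet, and Psmb7, where the groups overlap.

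Psmb10 encodes the beta subunit that gives the immunoproteasome its trypsin-like site. It measured 82.9, 110 and 146 CPM with ruxolitinib and 736, 872 and 1236 CPM in controls. Every control pool was far above every ruxolitinib pool, and the fitted level was 8.39-fold lower (log2 fold change -3.07 ± 0.32 SE, adjusted p = 7.3e-05). Psmb9, the subunit of the caspase-like position, measured 80.7, 121 and 167 CPM with ruxolitinib and 696, 765 and 1344 CPM in controls. It was 7.62-fold lower (-2.93 ± 0.37, adjusted p = 0.00021), with control pool 6 standing above the other controls. Psmb8, which carries the chymotrypsin-like site, measured 98.4, 150.2 and 214 CPM with ruxolitinib and a narrow 819, 898 and 918 CPM in controls, and was 5.7-fold lower (-2.51 ± 0.31, adjusted p = 0.000183).

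Both PA28 subunits fell as well, the activator ring being built from their products. Psme1, which encodes PA28 alpha, measured 143, 170 and 210 CPM with ruxolitinib and 746, 817 and 1078 CPM in controls (log2 fold change -2.34 ± 0.26, adjusted p = 0.000117). Psme2, which encodes its partner PA28 beta, measured 33.4, 69.9 and 73.2 CPM with ruxolitinib and 452, 441 and 464 CPM in controls (-2.94 ± 0.32, adjusted p = 9.23e-05). The control pools were close to each other for Psme2, and ruxolitinib pool 1 lay well below pools 2 and 3. Psme2 has a near-identical retrogene on chromosome 11, Psme2b, and the sources used here do not say how reads matching both were counted. Psme2b itself measured 37.6, 53.6 and 55.9 CPM with ruxolitinib and 166, 203 and 136 CPM in controls (-1.78 ± 0.24, adjusted p = 0.000302). With the counts of both genes added, the log2 fold change was -2.52 ± 0.28 (adjusted p = 0.000103).

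The transporter subunits differed in how clearly the groups separated. Tap2 measured 63.9, 93.3 and 141 CPM with ruxolitinib and 439, 516 and 506 CPM in controls (log2 fold change -2.29 ± 0.30, adjusted p = 0.000276). Tap1, its partner in the heterodimer, measured 117, 118 and 256.3 CPM with ruxolitinib and 574, 515 and 256.0 CPM in controls (-1.45 ± 0.40, adjusted p = 0.0114). Ruxolitinib pool 3 and control pool 6 thus had almost the same Tap1 level, while Tap2 was 506 CPM in that control pool. Without ruxolitinib pool 1 or pool 2, Tap1 no longer passed (adjusted p = 0.0683 and 0.0532). Tap1 and Psmb9, which flank the interval shown above, also parted in control pool 6, where Psmb9 had its highest level and Tap1 its lowest. The deposited models of these genes overlap by 212 bases on opposite strands, and without the strand setting of the counting, reads from that stretch cannot be told apart.

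The loading and trimming factors fell least. Tapbp measured 228, 253 and 312 CPM with ruxolitinib and 704, 717 and 363 CPM in controls (log2 fold change -1.17 ± 0.30, adjusted p = 0.0084). Its control pool 6 lay nearer to the ruxolitinib pools than to the other controls. Erap1 was the least abundant of the 9, at 46.7, 35.2 and 60.0 CPM with ruxolitinib and 92.6, 78.3 and 86.0 CPM in controls, and was 1.81-fold lower (-0.86 ± 0.23, adjusted p = 0.0104). Without ruxolitinib pool 1 Erap1 no longer passed (adjusted p = 0.0589).

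The constitutive subunits did not move as a block. Psmb5, the counterpart of Psmb8, measured 46.3, 75.0 and 73.0 CPM with ruxolitinib and 294, 337 and 667 CPM in controls, with a fold change between those of Psmb8 and Psmb9 (log2 fold change -2.74 ± 0.36, adjusted p = 0.000271). Psmb6, the counterpart of Psmb9, measured 70.2, 108 and 98.4 CPM with ruxolitinib and 265, 341 and 360.2 CPM in controls (-1.8 ± 0.24, adjusted p = 0.000307, and 0.09 with CD8 identity scaling). Psmb7, the counterpart of Psmb10, measured 51.8, 73.8 and 71.2 CPM with ruxolitinib and 98.1, 84.3 and 50.8 CPM in controls, and the difference was within the spread of the pools (-0.24 ± 0.27, adjusted p = 0.459, and 1.72 with CD8 identity scaling, adjusted p = 0.00545).

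Immune and constitutive forms were then compared within each library, as the ratio of their counts per base of gene length, which no library scaling can alter. Psmb10 exceeded Psmb7 by 3.21, 2.98 and 4.13 times with ruxolitinib and by 15.04, 20.8 and 48.8 times in controls. On the log2 scale the mean ratio was 1.77 ± 0.25 with ruxolitinib and 4.63 ± 0.88 in controls (SD, n = 3 pools), a difference of -2.86. The ratio of Psmb9 to Psmb6 was 0.588, 0.572 and 0.866 with ruxolitinib and 1.34, 1.15 and 1.91 in controls, so that each control pool held more Psmb9 than Psmb6 per base and each ruxolitinib pool less (log2 difference -1.11). The ratio of Psmb8 to Psmb5 was 0.699, 0.658 and 0.962 with ruxolitinib and 0.914, 0.876 and 0.452 in controls. Its groups overlapped, and the log2 difference of 0.10 was smaller than the SD of either group (0.29 and 0.57). That sign was not stable, at -0.07 without ruxolitinib pool 3 and -0.23 without control pool 6.

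The exact two-sided permutation test over pools gave p = 0.1 for Psmb10 to Psmb7 and for Psmb9 to Psmb6, the smallest that 3 pools against 3 allow, and p = 0.8 for Psmb8 to Psmb5. Adjusted over the 4 ratios examined (Benjamini-Hochberg), these exact permutation values were 0.133, 0.133 and 0.8. The fourth ratio set PA28 alpha plus beta against Psme3, which encodes PA28 gamma, the nuclear member of the family. Psme1 plus Psme2 stood at 0.665, 0.823 and 1.56 times Psme3 per base with ruxolitinib and at 10.98, 12.8 and 17.99 times in controls, without overlap (log2 difference -3.84, exact permutation p = 0.1, adjusted 0.133).

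The height of the 3 subunit ratios depends on the gene lengths used as divisors, which cancel in the difference between groups. A trend of fold change with gene length, described below, does not cancel, and the ratios were not corrected for it. The deposited lengths run from 899 bases for Psmb5 to 3659 for Psmb9 among the catalytic genes. With the length of the GENCODE M21 transcript that has the longest coding sequence, the ratio of Psmb9 to Psmb6 was 0.375 to 0.567 with ruxolitinib and 0.751 to 1.25 in controls, so that only control pool 6 stayed above 1, and Psmb8 to Psmb5 was 0.944 to 1.38 and 0.649 to 1.31. Psmb10 to Psmb7 was 3.23 to 4.47 with ruxolitinib and 16.3 to 52.9 in controls.

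**Figure D2:**
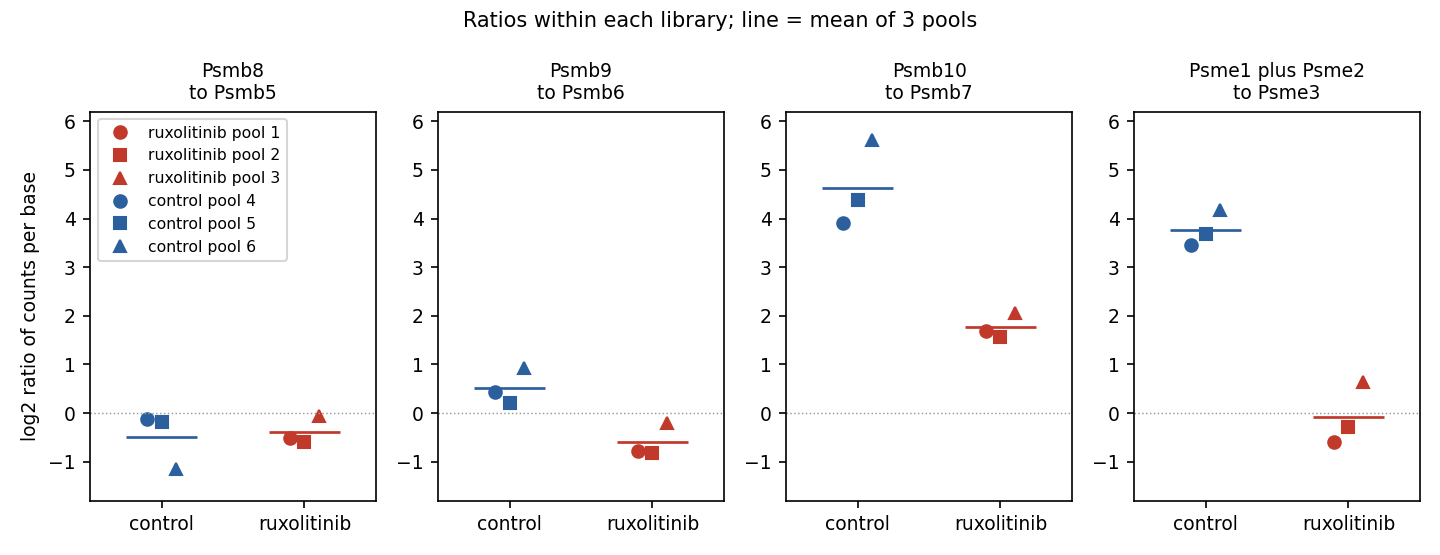
Log2 ratio of counts per base of gene length in each library, for the 3 pairs of immune and constitutive subunits and for PA28 alpha plus beta against gamma. Points are pools and lines are means of 3 pools. Psmb8 to Psmb5 overlaps between the groups, whereas the other 3 ratios are lower in every ruxolitinib pool than in every control pool.

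Per kilobase of deposited length, Psmb10 had the highest mean level of the 9 genes in controls, at 556 ± 152 RPKM (SD, n = 3). It was followed by Psme1 (399 ± 79.1 RPKM) and Psmb8 (321 ± 19.2 RPKM), neighbours in this order whose ranges of mean ± SD overlapped. Within every control pool, Psmb10, Psme1 and Psmb8 nevertheless kept this order. Psme2 (256 ± 6.48 RPKM) and Psmb9 (256 ± 97.3 RPKM) did not differ beyond their spread. Tapbp (180.4 ± 60.9 RPKM), Tap2 (129 ± 11.1 RPKM) and Tap1 (81.8 ± 30.9 RPKM) came next, and Erap1 was lowest at 11.8 ± 0.983 RPKM. With ruxolitinib the order changed: Tapbp (80.1 ± 13.1 RPKM) and Psme1 (78.8 ± 15.2 RPKM) led, and Psmb10 (66.3 ± 18.7 RPKM) and Psmb8 (56.3 ± 21.1 RPKM) followed. Their ranges of mean ± SD overlapped between pools. Within every ruxolitinib pool, however, Tapbp and Psme1 stood above Psmb10, and Psmb10 above Psmb8. Erap1 stayed last at 6.50 ± 1.70 RPKM. Both orders rest on the deposited lengths and may differ with transcript lengths, which for Psme2 were 962 bases against 1764 deposited.

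Other genes of the proteasome were taken from lists by role, to be read against 25.3% of all genes tested that fell and 29.9% that rose. All 11 further subunits of the 20S core fell, with a median of -1.26, a median that turned to 0.66 with CD8 identity scaling. The median of all genes tested moved from 0.03 to 2 with that scaling. Psmb3 (-2.01 ± 0.24) and Psmb4 (-1.72 ± 0.24), both structural beta subunits, fell most. Of 18 subunits of the 19S regulator, the cap that unfolds ubiquitinated proteins, 10 fell, 7 did not pass and Psmd1 rose (0.76 ± 0.19, adjusted p = 0.00683), and their median of -0.57 turned to 1.39 with that scaling. Psmd13 (-1.64 ± 0.23) and Psmd8 (-1.29 ± 0.22) had the largest falls there, and without ruxolitinib pool 1 or control pool 5 the 10 became 5. All 5 assembly chaperones fell: Psmg3 (-2.69 ± 0.40), Psmg4 (-2.09 ± 0.25), Psmg2 (-1.51 ± 0.20), Pomp (-1.42 ± 0.23), which helps build the immune form, and Psmg1 (-1.06 ± 0.25), with a median of -1.51 that became 0.44 with CD8 identity scaling.

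Against these, all 3 other regulators of the core rose, as did 29.9% of all genes tested. The 3 regulators stayed above 0 under every scaling tried, but this is no test of the rise. Scaling to the CD8 identity genes or to Psmb5, Psmb6 and Psmb7 raised the median of all genes to 2 and 1.62. Psme3 measured 371, 417 and 258 CPM with ruxolitinib and 160, 143 and 123 CPM in controls (log2 fold change 1.3 ± 0.25, adjusted p = 0.00172). Psmf1, which encodes the proteasome inhibitor PI31, measured 137, 175 and 109 CPM with ruxolitinib and 49.7, 48.2 and 28.1 CPM in controls (1.74 ± 0.28, adjusted p = 0.000702). Psme4, which encodes the nuclear activator PA200, measured 85.7, 76.7 and 55.2 CPM with ruxolitinib and 30.2, 33.6 and 30.1 CPM in controls (1.21 ± 0.22, adjusted p = 0.00128). The groups did not overlap for any of these 3 genes, where 35.7% of all genes tested were higher without overlap. Each was lowest of the ruxolitinib pools in pool 3, an order whose share among all genes was not counted.

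Around the transporter, the general chaperones of class I loading did not pass: Calr (-0.43 ± 0.25), Canx (0.06 ± 0.20), Pdia3 (-0.29 ± 0.35) and the tapasin relative Tapbpl (-0.88 ± 0.37, adjusted p = 0.0680). Their calls moved in both directions: without control pool 6, Calr, Pdia3 and Tapbpl passed as lower, and with CD8 identity scaling or scaling to Psmb5, Psmb6 and Psmb7, Calr, Canx and Pdia3 passed as higher. Of 6 other peptidases that trim or destroy antigenic peptides, Blmh (-2.21 ± 0.31) and Thop1 (-1.06 ± 0.29) fell, Lap3 (1.13 ± 0.21) and Npepps (0.84 ± 0.24) rose, and Tpp2 (0.05 ± 0.19) and Lnpep (-0.34 ± 0.22) did not pass. Among all genes tested, 25.3% fell and 29.9% rose. Without ruxolitinib pool 1, Blmh alone of the 6 was lower, and it was the only one below 0 with CD8 identity scaling. The class I molecules themselves fell, H2-K1 by 1.54 ± 0.34, B2m by 1.5 ± 0.28 and H2-D1 by 1.08 ± 0.28 on the log2 scale, and all 3 turned positive with CD8 identity scaling. Class I heavy chain genes are near-identical relatives, so the split of their reads is uncertain.

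Of 15 genes that carry or execute the inducing signal, 5 fell, 2 rose and 8 did not pass. For comparison, 25.3% of all genes tested fell and 29.9% rose. Among those that fell were Irf9 (-1.5 ± 0.24), Irf1 (-1.21 ± 0.32), a direct activator of Psmb9 and Tap1 transcription, the receptor chain gene Ifngr1 (-1.18 ± 0.24) and Nlrc5 (-0.73 ± 0.28, adjusted p = 0.0461), the transactivator of class I genes. The receptor chain gene Ifngr2 (1.58 ± 0.48) and the kinase gene Jak2 (0.91 ± 0.18) rose. The median of the list, -0.28, became 1.73 with CD8 identity scaling, under which each gene named here was above 0. Without ruxolitinib pool 1, 3 of the 5 lower genes still passed, Irf9 and Ifngr1 among them, and of the 2 higher genes only Jak2 did.

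**Figure D3:**
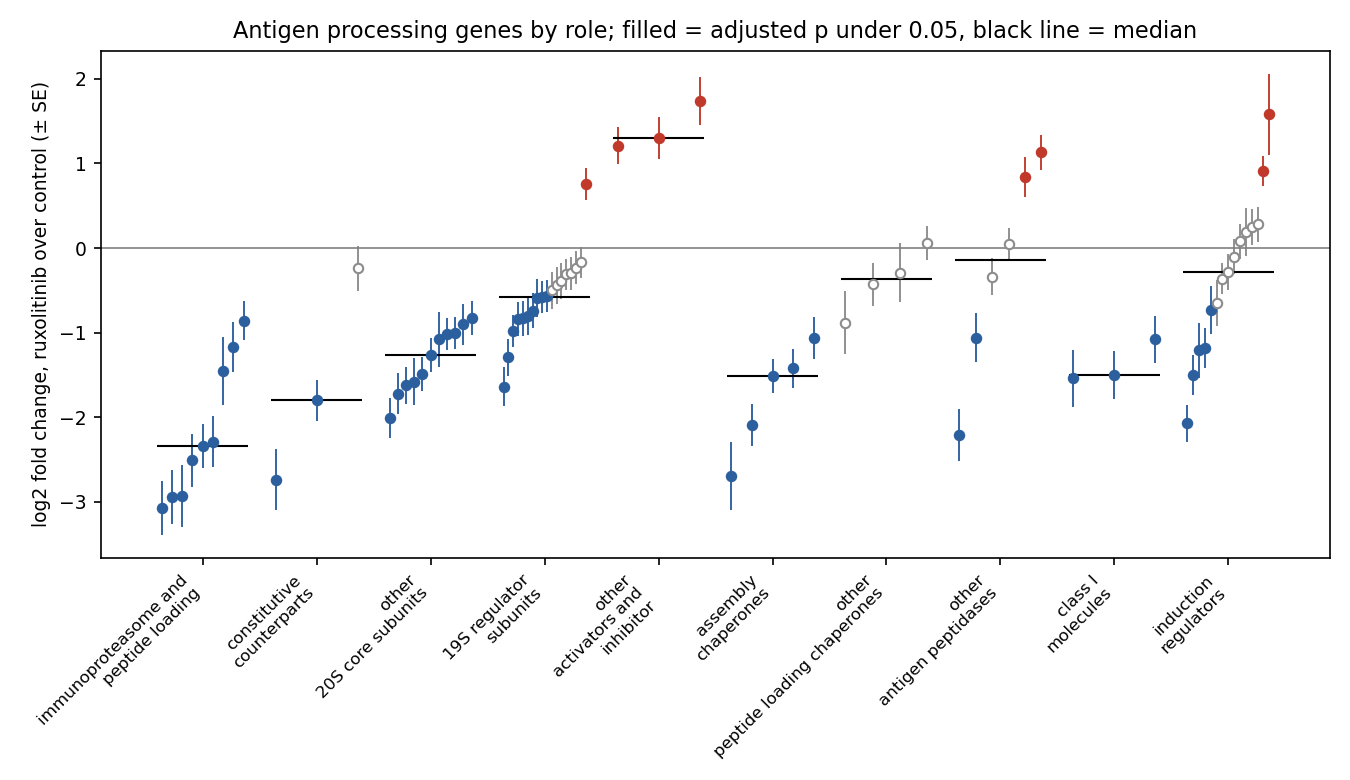
Log2 fold change of ruxolitinib over control (± SE, edgeR with TMM factors) for each gene of the pathway, grouped by role. Filled points passed an adjusted p of 0.05, open points did not, and black lines are medians. The 9 genes have the lowest median (-2.34), and the 3 other regulators of the core lie above 0 (median 1.3). Scaling to the CD8 identity genes moves the median of all genes tested from 0.03 to 2. It moves the median of every group but the 9 genes above 0. Because nearly all genes move up, a sign under that scaling does not set a group apart.

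Within the ruxolitinib group the 9 genes shared their highest pool. All 9 were highest in pool 3, the pool in which all 17 CD8 identity genes were also highest, whereas 30.7% of all genes tested had their highest ruxolitinib level there. Of the 9, 8 were lowest in pool 1 (35.1% of all genes tested were), and Erap1 was lowest in pool 2. The 3 constitutive counterparts were each highest in pool 2, as were 5098 of the 13480 genes tested. Set against the geometric mean of the identity genes, the summed level of the 9 genes was 9.62, 10.1 and 6.19 times that mean with ruxolitinib and 9.47, 10.4 and 15.1 times in controls, and the groups overlapped.

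The fit was repeated with libraries scaled to the 17 identity genes. This moved the median of all genes from 0.03 to 2 on the log2 scale, with 0.482% of genes lower and 70.4% higher. Of the 9 genes 1 was then lower and none higher: Psmb10 (log2 fold change -1.27 ± 0.57, adjusted p = 0.0376). Psmb9 (-1.18 ± 0.57, adjusted p = 0.0534), Psme2 (-1.11 ± 0.57, adjusted p = 0.0694) and Psmb8 (-0.72 ± 0.57, adjusted p = 0.238) kept negative values that did not pass, as did Tap2 (-0.51) and Psme1 (-0.49). Tap1 (0.35), Tapbp (0.78) and Erap1 (1.02) had positive values that did not pass. This scaling takes the identity genes as unaffected by the drug, which was not tested.

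With libraries scaled instead to the geometric mean of Psmb5, Psmb6 and Psmb7, which sets every gene against the mean of these 3 subunits and not against a counterpart of its own, the median of all genes was 1.62, and 6 of the 9 genes were lower and 1 higher (1.94% of all genes were lower and 73.4% higher). Psmb10 (-1.51 ± 0.31, adjusted p = 0.000213), Psme2 (-1.44 ± 0.30, adjusted p = 0.000241), Psmb9 (-1.38 ± 0.33, adjusted p = 0.000734) and Psmb8 (-0.99 ± 0.31, adjusted p = 0.00677) were lower, followed by Psme1 (-0.77 ± 0.30, adjusted p = 0.0269) and Tap2 (-0.76 ± 0.31, adjusted p = 0.0287). Tap1 (0.06 ± 0.37) and Tapbp (0.37 ± 0.34) did not pass, and Erap1 was higher (0.73 ± 0.32, adjusted p = 0.0453).

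Gene length moved with the comparison as well. Among all genes tested the median log2 fold change was -0.86 in the shortest eighth (median length 789 bases) and 0.50 in the longest (11052 bases). The catalytic, PA28 and Tap2 genes lie in the second to the fourth eighth, where medians were -0.42, -0.17 and -0.06, Tapbp lies in the fourth, and Tap1 and Erap1 lie in the sixth and the seventh. With offsets for length and GC content in each library, all 9 genes were still lower, with a median of -2.41 (25.4% of all genes were lower and 28.4% higher, and the median of all was -0.01). Tap1 was lower by more (-2 ± 0.35), Psme1 by less (-1.88 ± 0.27), and Psmb5 moved from -2.74 to -1.77 ± 0.34. With these offsets and CD8 identity scaling together, Psmb9 was the only one of the 9 that passed (-1.49, adjusted p = 0.0122), where 0.564% of all genes were lower and 66.5% higher.

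**Figure D4:**
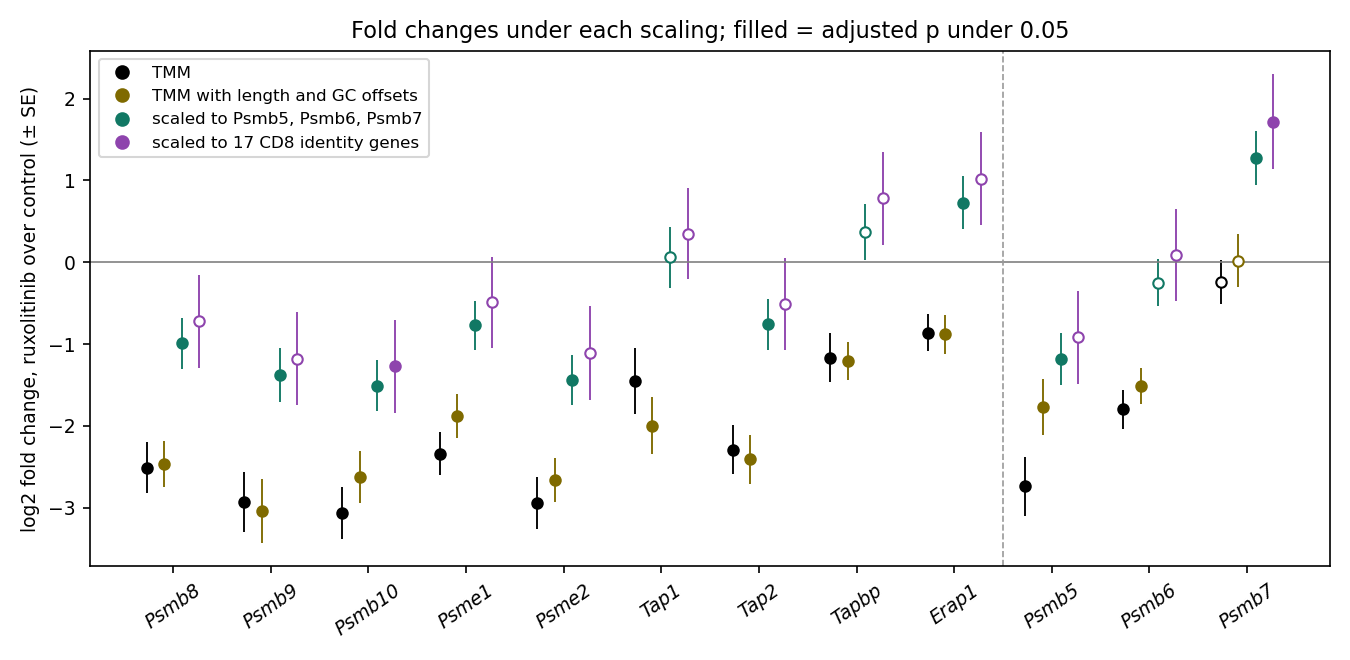
Log2 fold change (± SE) of the 9 genes and, right of the dashed line, the 3 constitutive counterparts under 4 scalings. Filled points passed an adjusted p of 0.05. Scaled to Psmb5, Psmb6 and Psmb7, 6 of the 9 genes remain below 0 and filled, and scaled to the CD8 identity genes Psmb10 alone of the 9 does, while Tap1, Tapbp and Erap1 lie above 0 under both.

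The genes whose profile over the 6 pools was most like the mean profile of the 9 (smallest root mean square distance of centred log2 CPM, among 6431 protein-coding genes at 20 CPM or more) were Fkbp1a, Tbc1d10c, Rpl30, Apobec3, Adap1 and Sapcd2. Their distances were 0.0797 to 0.120 log2 units, against a median of 1.07 over all candidates. Chosen as the nearest, these genes lie below that median by construction. Fkbp1a, for example, measured 91.9, 110 and 153 CPM with ruxolitinib and 466, 490.3 and 543 CPM in controls. The 9 genes themselves lay 0.128 (Tap2) to 0.699 (Erap1) from their own mean. Tap2, Psme1 (0.189) and Psmb8 (0.213) were nearest to it, and Tap1 (0.548), Tapbp (0.640) and Erap1 farthest.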

How the data were processed

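The authors deposited 1 table of raw counts per gene, whole numbers with a gene length, for 6 libraries, 3 per group. Reads were aligned with HISAT2 2.0.5 to mm10, per the submitters' processing notes. For the counting program, its strand setting and the annotation, the sources used here give nothing. The comparison used edgeR 4.0.16 (R 4.3.3; filterByExpr, TMM, robust glmQLFit and glmQLFTest, no covariate). P-values were adjusted after Benjamini-Hochberg over the 13480 genes kept, with a threshold of 0.05. The SE is the log2 fold change divided by the square root of F. RPKM and ratios came from the counts and the deposited lengths. The 9 genes, the lists and the tests were chosen with earlier results of these data known. Genes named were the 9 with their counterparts, the 2 largest changes per direction of each list, all genes of short lists or small counts, the most abundant cell markers, and the 6 genes nearest in profile (log2 of CPM + 1). Alternatives were RLE factors, 2 other filters, DESeq2 1.42.0, limma-voom (limma 3.58.1), 3 other scalings and leaving out each pool. Length and GC offsets (8 by 5 bins), the Psme2 sum and transcript lengths were added after the data were seen. The fit was tested on simulated counts. No columns of different libraries were identical. Reads are not independent molecules, and p-values measure the spread between pools. Sequences are from RefSeq (GRCm38.p6). Results for some listed genes are not reported here.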

Additional observations from a re-analysis of the deposited data

How the results depend on the processing

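No paired analysis was possible because the pools are numbered 1 to 3 in one group and 4 to 6 in the other, so no number is shared. The count of 9 lower genes was 9 with RLE factors, both other filters, DESeq2, limma-voom, haemoglobin genes removed and length and GC offsets, and 7 to 9 with 1 pool left out. Leaving out 1 pool gave 2306 to 3831 lower and 3443 to 4482 higher genes in all, 5 to 12 lower 19S genes, 0 to 3 lower loading chaperones, 1 to 2 lower peptidases, and 3 to 6 lower and 1 to 2 higher regulators. The ruxolitinib minus control difference in the log2 ratio of Psmb8 to Psmb5 ranged from -0.23 to 0.28 when 1 pool was left out. With Psmb8 set against the geometric mean of the 20S core genes in place of Psmb5, the difference was -1.22. Scaling had the widest effect, and the cause was not tested. In the order of CD8 identity scaling, scaling to Psmb5, Psmb6 and Psmb7, and length and GC offsets with CD8 identity scaling, 1, 6 and 1 of the 9 genes were lower and 0, 1 and 0 higher. In that order the constitutive counterparts had 0, 1 and 0 lower and 1, 1 and 1 higher, and all genes 65, 261 and 76 lower and 9494, 9888 and 8961 higher. The 20S genes had 0, 0 and 0 lower and 0, 1 and 3 higher. The 19S genes had 0, 0 and 0 lower and 12, 15 and 11 higher. The assembly chaperones had 0, 1 and 0 lower and 0, 0 and 1 higher. The loading chaperones had 3, 3 and 3 higher, and 1 lower both with no filter and with DESeq2. The peptidases had 0, 0 and 0 lower and 4, 4 and 3 higher, and 1 higher with length and GC offsets alone. The class I genes had 0, 0 and 0 lower. The regulators had 0, 0 and 0 lower and 9, 11 and 9 higher, and 1 higher with no filter. Among the 9 genes, their counterparts, Psme3, Psme4 and Psmf1, the values that changed sign were, with CD8 identity scaling, Tap1 0.35, Tapbp 0.78, Erap1 1.02, Psmb6 0.09 and Psmb7 1.72. With scaling to the 3 counterparts they were Tap1 0.06, Tapbp 0.37, Erap1 0.73 and Psmb7 1.28. With offsets and CD8 identity scaling they were Tapbp 0.49, Erap1 0.76, Psmb6 0.18 and Psmb7 1.77, and with offsets alone Psmb7 0.02. Genes of the other lists changed sign under these settings too, among them all 3 class I genes and 10 of the 11 20S genes with CD8 identity scaling. The difference between groups in the log2 ratio of Psmb8 to Psmb5 also changed sign without ruxolitinib pool 3 (-0.07) and control pool 6 (-0.23). With 3 pools a group, exact tests of the ratios cannot go below 0.1.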
